A study of Mus musculus with 24 samples.

Results

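Fat from control mice in the subjective night, at circadian time (CT) 19, was set against fat of the same genotype in the subjective day, at CT7. Both groups came from CON mice (Syt10-Cre/Cre x Bmal1-+/-), which carry Cre at the Syt10 locus and a single null allele of Bmal1. The samples are the 6 arrays titled eWAT CON CT19 and eWAT CON CT7, 3 mice per time and 1 array per mouse, of 24 arrays in the series. The genes are all those with a probe set of a single symbol, represented by the brightest probe set, and 15526 of 22180 such genes passed a filter on low signal. The remaining arrays hold CON fat at CT1 and CT13 and MUT fat (Syt10-Cre/Cre x Bmal1-flox/-) at all 4 times, from mice whose clock in the suprachiasmatic nucleus, the brain's pacemaker, is functionally deleted. MUT mice carry the same Cre and null alleles, so neither genotype is a Bmal1 wild type. All mice spent 2 weeks in a light-dark cycle and were killed on the second day of constant darkness, 6 h apart, starting at CT1. Their ages are not given in the labels, and the 2 groups carry the same labels apart from time.

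The mammalian clock is a feedback loop: CLOCK or NPAS2 pairs with BMAL1, encoded by Arntl, and switches on the Per, Cry and Nr1d genes through E-box motifs in DNA. PER and CRY proteins then block the activators, and the REV-ERB receptors encoded by Nr1d1 and Nr1d2 shut off Arntl through ROR elements, which ROR receptors activate. In white fat, daily feeding and the local clock are known to act on triglyceride storage, lipolysis and leptin.

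The labels disagree about the tissue, since the source field names mediobasal hypothalamus while title and treatment fields point to eWAT, the epididymal white fat pad beside the testis. The median adipocyte marker lay at percentile 99.7 of the mean signal of all genes with a probe set, the median marker of hypothalamus and neurons at 39.3 and that of epididymis at 16.8. The tissue is called fat below on that basis. Array medians ran between 7.802 and 7.936 (log2 signal), and the widths of the signal distribution differed within the CT7 group. The interquartile range was 2.053, 2.023 and 2.084 on the CT19 arrays, against 2.066, 1.953 and 1.968 on the CT7 arrays, replicates 2 and 3 of CT7 being the narrow ones. Results are therefore also given without those 2 arrays, a setting that leaves a single CT7 array. A call lost there cannot be set apart from the effect of having fewer arrays. The labels do not say whether time points were processed on separate days, and no batch could be tested.

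Promoters of 3 clock genes with a 12-h difference are shown because each holds a motif of the loop described above: Ciart and Per1, targets of the activators that were lower at CT19, and Arntl, the activator gene that was higher at CT19. Capitals mark the E-box CACGTG in the first pair and the ROR element TAGGTNA in the last, searched on both strands and with no motif overlapping another. The windows run from 250 bases before to 50 after the gene start in RefSeq (GRCm38.p6), and are written 5′ to 3′ on the gene's strand.

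Ciart promoter, chr3:95882179-95882478, minus strand: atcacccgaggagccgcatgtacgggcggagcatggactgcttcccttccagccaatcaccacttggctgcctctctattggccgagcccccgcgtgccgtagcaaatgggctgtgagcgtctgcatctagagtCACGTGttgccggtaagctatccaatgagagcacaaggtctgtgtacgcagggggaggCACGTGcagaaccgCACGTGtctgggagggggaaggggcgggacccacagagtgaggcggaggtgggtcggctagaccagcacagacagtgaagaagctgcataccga

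Per1 promoter, chr11:69098699-69098998, plus strand: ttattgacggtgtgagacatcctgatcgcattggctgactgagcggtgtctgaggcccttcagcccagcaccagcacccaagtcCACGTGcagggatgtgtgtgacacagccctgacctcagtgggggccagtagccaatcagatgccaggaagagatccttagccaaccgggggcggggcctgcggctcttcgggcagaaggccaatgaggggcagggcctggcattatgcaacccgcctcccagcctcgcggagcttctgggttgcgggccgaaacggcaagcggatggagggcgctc

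Arntl promoter, chr7:113207215-113207514, plus strand: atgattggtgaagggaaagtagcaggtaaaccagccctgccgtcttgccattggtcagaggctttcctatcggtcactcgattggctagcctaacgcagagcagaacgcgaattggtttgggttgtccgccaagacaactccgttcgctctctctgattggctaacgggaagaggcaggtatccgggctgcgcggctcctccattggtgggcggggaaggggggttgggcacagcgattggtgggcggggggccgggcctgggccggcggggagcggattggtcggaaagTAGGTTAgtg

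The Ciart window holds 3 E-boxes, beginning 116, 58 and 44 bases before the gene start, the Per1 window holds 1, beginning 166 bases before it, and the Arntl window holds 1 ROR element, which begins at base 41 counted from the start. Per1 and Arntl each have 2 windows in the table, and the first listed is shown. With the first listed window of each of 27025 genes, an E-box was found in 7.24% and a ROR element in 8.34%. Among genes tested here with a window, 9.57% held an E-box, compared with 10% of the 908 higher and 12.5% of the 375 lower at CT19. For the ROR element these shares were 6.39%, 6.39% and 5.87%, and for the D-box TTANGTAA, bound by DBP and NFIL3, they were 1.42%, 1.32% and 1.87%. Of 18 clock genes with a window, 5 held an E-box, 2 a ROR element and 1, Per3, a D-box, so most of them do not carry these letters so close to the start.

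At CT19 1160 genes were higher than at CT7 and 498 were lower at an adjusted p under 0.05, which is 10.7% of the genes tested (7.47% higher, 3.21% lower). Most of these differences were small. The median called gene was 1.29-fold higher or 1.28-fold lower, and 192 higher and 66 lower genes differed by at least 1.5-fold (1.66% of genes tested), of which 38 and 20 reached 2-fold. The clock repressor gene Nr1d1 had the lowest value of all, 7.01-fold lower at CT19, and Angptl8, whose product regulates lipoprotein lipase after feeding, the highest, 6.32-fold higher. The 3 CT19 arrays did not overlap the 3 CT7 arrays for 28.1% of all genes tested. Among called genes this held for 1139 of the 1160 higher and 470 of the 498 lower. For a called gene a lack of overlap is thus usual and adds little to the call. Differences below are log2 differences, CT19 minus CT7, with their standard errors, and adjusted p-values are from limma over all genes tested.

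The surplus of higher genes depended on how the arrays were scaled. It was 70% of the called genes as deposited, 52.7% after quantile normalization (945 higher and 849 lower) and 54.1% when a trend of each array with signal level was subtracted (883 higher and 750 lower). In the brightest decile of genes 264 were higher and 88 lower, and in the dimmest decile 19 and 26. Without replicates 2 and 3 of CT7, whose spread was narrow, a single CT7 array is left, so counts there are not comparable with these. Without replicate 3 of CT7 alone the count was 886, and without replicate 2 of CT19 it was 1070. The part that array spread has in the surplus was not tested, so single genes and lists are described rather than the balance of directions. Counts of calls in the lists below stand against 7.47% higher and 3.21% lower over all genes tested.

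**Figure D1:**
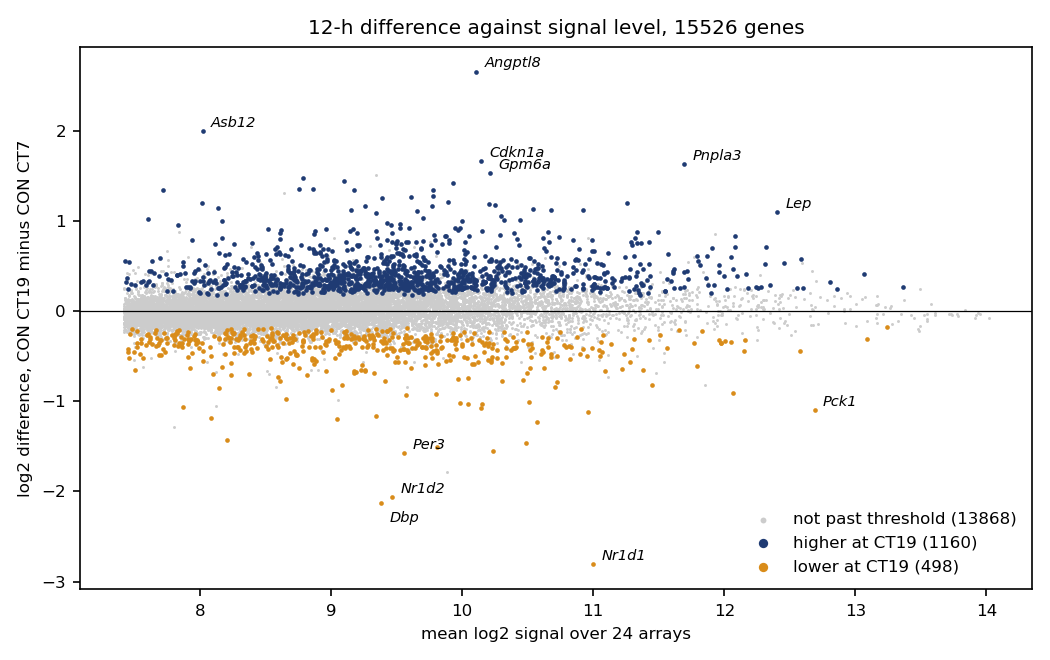
Log2 difference of CON CT19 minus CON CT7 (vertical axis) against mean log2 signal over 24 arrays (horizontal axis) for 15526 genes, with the genes past an adjusted p of 0.05 in blue (1160 higher at CT19) and orange (498 lower at CT19). Most coloured points lie within 1 log2 unit of 0, and Angptl8 and Nr1d1 are the extremes.

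Among the activators of the clock loop, 3 of 4 genes rose at CT19, with a list median of 1.12 against 0.01 over all genes. Arntl, which encodes BMAL1 and carries the null allele in these mice, had log2 signals of 9.52, 9.64 and 9.46 at CT19, against 8.09, 7.96 and 8.14 at CT7. It was 1.47 ± 0.14 higher (2.78-fold, adjusted p = 1.18e-06), and each CT19 array lay more than 1 log2 unit above every CT7 array. Npas2, whose protein can replace CLOCK as the partner of BMAL1, stood at 9.85, 9.88 and 9.90 at CT19, against 8.60, 8.32 and 8.37 at CT7 (1.45 ± 0.17, adjusted p = 1.76e-05). Clock itself read 11.28, 11.10 and 11.23 at CT19, against 10.58, 10.30 and 10.35 at CT7 (0.79 ± 0.09, adjusted p = 6.3e-06). The groups did not overlap for any of the 3. Rora, a receptor that activates Arntl, had a difference of -0.08 ± 0.09 (adjusted p = 0.62). Syt10, the locus that carries Cre, read 7.53, 7.68 and 7.64 at CT19, against 7.38, 7.62 and 7.53 at CT7, and did not pass (adjusted p = 0.458).

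The repressors split in direction: 5 of 9 fell at CT19, 2 rose and 2 did not pass. Nr1d1, which encodes REV-ERB alpha, had log2 signals of 9.54, 9.12 and 9.61 at CT19, against 12.38, 12.06 and 12.25 at CT7 (-2.81 ± 0.17, adjusted p = 8.33e-10). Nr1d2, encoding REV-ERB beta, read 8.26, 7.97 and 8.68 at CT19, against 10.40, 10.31 and 10.39 at CT7 (-2.06 ± 0.19, 4.18-fold, adjusted p = 5.54e-07). For both, the distance between the groups was several times the range within them, and the 3 CT19 mice differed more among themselves than the 3 CT7 mice. Per3 stood at 8.82, 8.56 and 9.11 at CT19, against 10.36, 10.46 and 10.37 at CT7 (-1.57 ± 0.16, adjusted p = 1.18e-06). Per1, which in the mouse responds to light and hormones as well as to the loop, stood at 10.03, 9.89 and 10.26 at CT19, against 11.23, 11.31 and 11.33 at CT7 (-1.23 ± 0.14, adjusted p = 1.54e-05). In Per3, Nr1d1 and Nr1d2 the lowest CT19 array was replicate 2, and so it was in Per1.

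Ciart, a repressor of CLOCK and BMAL1 whose promoter is shown above, was close among the arrays of each time. It read 7.64, 7.81 and 7.71 at CT19, against 8.88, 8.70 and 8.76 at CT7 (-1.06 ± 0.07, adjusted p = 3.5e-09), and the CT19 values lie close to the level filter of 7.416. Bhlhe40, encoding DEC1, which competes for E-boxes, was higher at 10.80, 10.93 and 10.74 at CT19, against 9.69, 9.72 and 9.56 at CT7 (1.17 ± 0.22, adjusted p = 0.00146). Cry1, encoding a cryptochrome that blocks the activators late in the cycle, was higher at 8.83, 9.06 and 9.06 at CT19, against 8.65, 8.52 and 8.57 at CT7 (0.41 ± 0.09, adjusted p = 0.00586). The called repressors thus went 2 ways at CT19, the Nr1d, Per and Ciart genes below and Bhlhe40 and Cry1 above. Cry2 differed by 0.06 ± 0.07 (adjusted p = 0.632) and Bhlhe41, encoding DEC2, by -0.02 ± 0.24 (adjusted p = 0.975). Per2 shares its probe set with another symbol and was not tested.

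Of the output genes 1 rose, 3 fell and 3 did not pass. Dbp, a D-box activator and a direct target of CLOCK and BMAL1, read 8.58, 8.39 and 8.60 at CT19, against 10.61, 10.62 and 10.73 at CT7 (-2.13 ± 0.17, 4.37-fold, adjusted p = 3.92e-08). Its relative Tef read 8.66, 8.54 and 8.76 at CT19, against 9.66, 9.62 and 9.31 at CT7 (-0.87 ± 0.11, adjusted p = 3.13e-05). Hlf, the remaining member of that family, differed by -0.28 ± 0.08 (adjusted p = 0.0263). Nfil3, which encodes the repressor at the same D-box sites, went the opposite way with 9.20, 9.24 and 9.33 at CT19, against 8.22, 8.47 and 8.39 at CT7 (0.90 ± 0.10, adjusted p = 1.22e-05). Usp2 (-0.19 ± 0.10), Wee1 (-0.12 ± 0.13) and Tspan4 (-0.20 ± 0.10) did not pass. A second, dimmer probe set of Tef gave -0.20 ± 0.09 (adjusted p = 0.188). The call of Hlf ended without any 1 of 4 arrays, with a difference of -0.25 and adjusted p = 0.094 without replicate 2 of CT19.

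**Figure D2:**
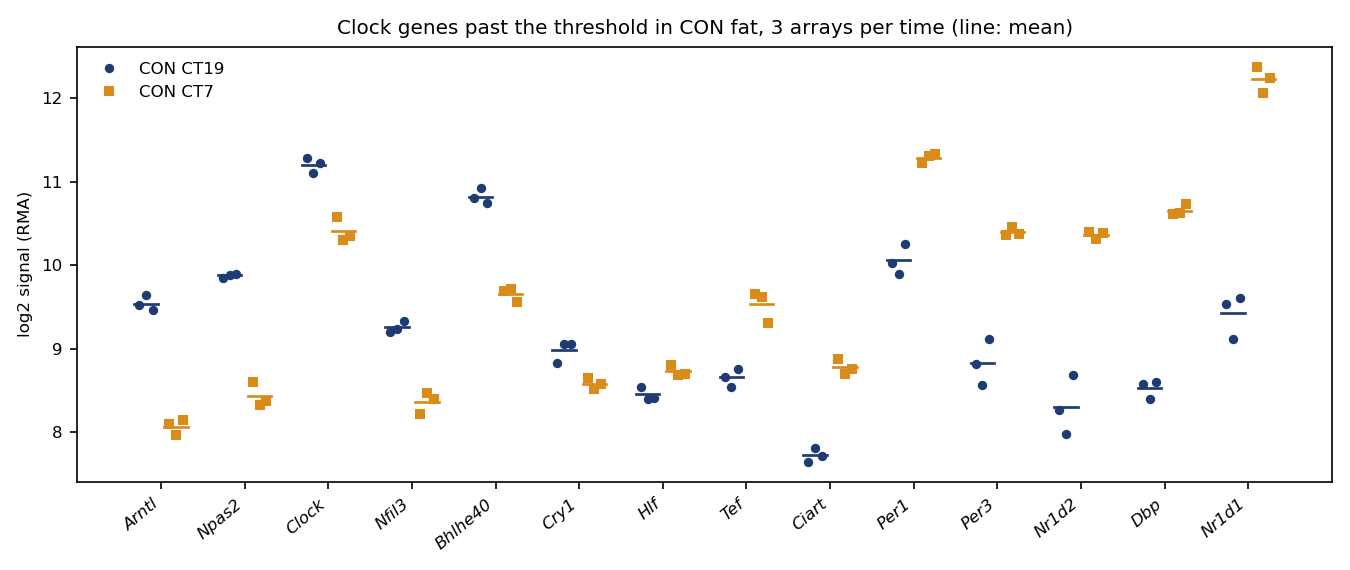
Log2 signal (vertical axis) of the 14 clock genes past the threshold on the 3 CON CT19 arrays (blue circles) and the 3 CON CT7 arrays (orange squares), with a line at each group mean. The 2 groups do not overlap for any gene, from Arntl (1.47) to Nr1d1 (-2.81).

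In fatty acid and triglyceride synthesis, 3 of 21 genes rose, none fell and the median difference was 0.25, with 17 members above 0. The median member lay at signal percentile 98.3 of the genes tested. Calls were more frequent in the brightest decile (264 higher, 88 lower) than in the dimmest (19 and 26). Whether the list exceeds genes of like signal was not tested. Pnpla3, which encodes a lipid droplet protein induced by feeding in mouse fat, stood at 12.04, 12.43 and 12.18 at CT19, against 10.69, 10.75 and 10.31 at CT7 (1.63 ± 0.19, 3.1-fold, adjusted p = 1.57e-05). Elovl6, which lengthens palmitate to stearate, stood at 10.12, 11.35 and 10.38 at CT19, against 9.58, 9.09 and 9.14 at CT7 (1.35 ± 0.33, adjusted p = 0.011). The Pnpla3 groups were apart by more than 1 unit, whereas Elovl6 was high mainly in replicate 2 of CT19. Srebf1, the transcription factor gene of lipogenesis, read 11.18, 11.69 and 11.10 at CT19, against 10.82, 10.90 and 10.78 at CT7 (0.49 ± 0.15, adjusted p = 0.0431). Dgat2, the last enzyme of triglyceride assembly, had 0.25 ± 0.08 (adjusted p = 0.0528). Acly, which supplies cytosolic acetyl-CoA and was chosen after its values were seen, had 12.15, 13.10 and 12.50 at CT19, against 12.28, 11.26 and 11.62 at CT7. Its groups overlapped, and its difference of 0.86 ± 0.34 did not pass (adjusted p = 0.115). Without replicate 2 of CT19 the difference of Elovl6 was 0.98 (adjusted p = 0.0803) and that of Srebf1 0.31 (adjusted p = 0.255). After quantile normalization the list had 3 higher and 1 lower.

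Mid1ip1, whose protein activates acetyl-CoA carboxylase, the committed step of fatty acid synthesis, was outside that list but among the 15 highest genes. It read 10.02, 10.65 and 9.74 at CT19, against 8.79, 8.98 and 8.88 at CT7 (1.26 ± 0.18, 2.39-fold, adjusted p = 0.000148). Its other probe sets gave 0.48 ± 0.10 (adjusted p = 0.00465) and -0.12 ± 0.07 (adjusted p = 0.298), so its probe sets disagree.

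Replicate 2 of CT19 was the highest of the 3 CT19 arrays for 18 of these 21 synthesis genes and for 12 of the 13 cholesterol synthesis genes below, against 26.3% of all genes tested. Replicate 1 was the lowest for 16 and for 12, against 32.9% of all genes tested. The same replicate 2 was the lowest for 11 of 17 genes of lipolysis (64.7%) and for all 11 macrophage markers, against 43.7% of all genes. Its share was 58.8% among genes lower at CT19 and 41.8% among genes higher. The CT19 mice thus differed among themselves in these genes.

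Genes of lipolysis and fatty acid handling moved both ways: 3 of 17 rose, 4 fell and the median was -0.10. They too were bright, with the median member at signal percentile 98.5. Angptl8, which in mice is made in fat and liver after feeding and directs the inhibition of lipoprotein lipase, read 11.60, 12.30 and 11.53 at CT19, against 9.12, 9.23 and 9.10 at CT7 (2.66 ± 0.33, adjusted p = 3.13e-05). Its CT7 signals lay within 0.2 units of each other and more than 2 units below the lowest CT19 signal. G0s2, an inhibitor of the lipase ATGL, rose by 0.75 ± 0.16 (adjusted p = 0.00523), while a second probe set of it gave 0.22 ± 0.12 (adjusted p = 0.285). Angptl4, the fasting-induced inhibitor of lipoprotein lipase, stood at 10.85, 10.61 and 11.15 at CT19, against 11.44, 11.40 and 11.46 at CT7 (-0.57 ± 0.13, adjusted p = 0.00841). Gpihbp1, which holds lipoprotein lipase on capillary walls, stood at 10.63, 10.32 and 10.43 at CT19, against 11.06, 10.90 and 10.93 at CT7 (-0.50 ± 0.09, adjusted p = 0.00091). Angptl8 and Angptl4, whose products act on the same lipase, thus differed in opposite directions, with no overlap in either. Without replicate 2 of CT19 Angptl4 had a difference of -0.44 (adjusted p = 0.0618). The list had 2 higher and 6 lower after quantile normalization and 2 and 8 with the level trend removed.

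In fatty acid oxidation no gene rose and 2 of 15 fell, with a median of -0.12. Acadl, a mitochondrial acyl-CoA dehydrogenase gene, had -0.32 ± 0.09 (adjusted p = 0.0272) and Ppara, a nuclear receptor gene of the pathway, -0.35 ± 0.11 (adjusted p = 0.0406). Ehhadh (-0.40 ± 0.15) and Acaa2 (0.27 ± 0.10) did not pass. Both calls were fragile: without replicate 2 of CT19 Acadl had -0.26 (adjusted p = 0.129) and Ppara -0.31 (adjusted p = 0.15), and they also ended without any 1 of 3 and 4 further arrays. Pck1, the enzyme that makes glycerol phosphate for fatty acid re-esterification in fat, was among the 15 lowest genes at 12.23, 11.29 and 12.56 at CT19, against 13.16, 12.94 and 13.27 at CT7 (-1.10 ± 0.22, 2.15-fold, adjusted p = 0.00279). Again replicate 2 of CT19 was the farthest from CT7.

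Of 11 glycogen genes 4 rose and none fell, with a median of 0.22, and 3 of the 4 encode subunits that bring protein phosphatase 1 to glycogen. Ppp1r3c read 10.59, 10.87 and 10.63 at CT19, against 9.63, 9.42 and 9.41 at CT7 (1.21 ± 0.18, 2.31-fold, adjusted p = 0.000211). Ppp1r3d read 9.29, 9.29 and 9.37 at CT19, against 8.61, 8.58 and 8.46 at CT7 (0.77 ± 0.11, adjusted p = 9.62e-05). Both pairs of groups were well apart. Ppp1r3b stood at 9.75, 10.78 and 9.52 at CT19, against 8.67, 8.93 and 8.94 at CT7 (1.17 ± 0.25, adjusted p = 0.00413), highest in replicate 2, and a second probe set gave 0.33 ± 0.11 (adjusted p = 0.056). Ugp2, which makes UDP-glucose, rose by 0.42 ± 0.08 (adjusted p = 0.00162).

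In insulin signalling and glucose use 4 of 16 genes fell, none rose and the median was 0.01. Irs2, an insulin receptor substrate gene repressed by insulin in liver, stood at 10.08, 9.45 and 10.23 at CT19, against 10.63, 10.62 and 10.82 at CT7 (-0.77 ± 0.17, adjusted p = 0.0052). Pfkfb3, a regulator of glycolysis, had -0.42 ± 0.10 (adjusted p = 0.00588), Pdk2, an inhibitor of pyruvate dehydrogenase, -0.41 ± 0.09 (adjusted p = 0.00552) and Insr, the insulin receptor, -0.34 ± 0.08 (adjusted p = 0.0117). The groups did not overlap for these 4 genes. Insr lost its call without replicate 2 of CT19 (-0.27, adjusted p = 0.0768).

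Of 10 adipokine genes 4 rose and 1 fell, with a median of 0.14. Lep, which encodes leptin, the satiety hormone of fat, read 12.91, 12.60 and 12.46 at CT19, against 11.34, 11.98 and 11.36 at CT7 (1.10 ± 0.14, 2.14-fold, adjusted p = 3.13e-05). All CT19 signals were above all CT7 signals, although replicate 2 of CT7 came within 0.5 units of the lowest of them. Retnla, a resistin-like gene that macrophages express too, rose by 0.76 ± 0.14 (adjusted p = 0.00146), and Rbp4, the carrier of retinol in blood, by 0.27 ± 0.07 (adjusted p = 0.0147). Nrg4 had -0.32 ± 0.09 (adjusted p = 0.0277). The fourth adipokine to rise was Nampt, the rate-limiting enzyme of NAD salvage, with 0.37 ± 0.11 (adjusted p = 0.0309), the single call among 11 genes of NAD metabolism. Without replicate 2 of CT19 Nrg4 had -0.26 (adjusted p = 0.129), without replicate 3 of CT7 Nampt had 0.34 (adjusted p = 0.112), and without replicate 3 of CT19 Rbp4 had 0.23 (adjusted p = 0.0733). Leaving out any 1 of the 6 arrays compared ended the call of Nampt.

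Of 13 cholesterol synthesis genes 8 rose and none fell, all 13 were above 0 and the median was 0.51. Sc5d, an enzyme late in the pathway, stood at 11.75, 12.16 and 11.52 at CT19, against 11.12, 11.11 and 10.89 at CT7 (0.77 ± 0.12, adjusted p = 0.000397). Sqle, the squalene epoxidase, stood at 8.48, 8.79 and 8.56 at CT19, against 7.82, 7.94 and 7.82 at CT7 (0.75 ± 0.14, adjusted p = 0.00175). The 2 enzymes rose by about the same amount and without overlap. Srebf2, the transcription factor gene of the pathway, rose by 0.38 ± 0.06 (adjusted p = 0.000482) and Dhcr7, the enzyme of the final step, by 0.51 ± 0.10 (adjusted p = 0.00326). Without replicates 2 and 3 of CT7, which leaves a single CT7 array, the list median was 0.40. Aacs, which supplies acetoacetyl-CoA to this pathway, had 0.53 ± 0.20 (adjusted p = 0.0892).

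Among chaperones, 5 of 11 heat shock genes rose, none fell and all 11 were above 0 (median 0.27). Hspa8, the constitutive HSC70 gene, read 12.74, 12.73 and 12.53 at CT19, against 12.18, 12.14 and 12.07 at CT7 (0.54 ± 0.07, adjusted p = 6.9e-05), and its 3 other probe sets passed in the same direction. Serpinh1, a collagen chaperone gene, rose by 0.58 ± 0.12 (adjusted p = 0.00253), Hsph1 by 0.63 ± 0.16 (adjusted p = 0.0128) and Hsp90aa1 by 0.37 ± 0.09 (adjusted p = 0.0121). Without replicate 1 of CT19 Hsph1 had 0.55 (adjusted p = 0.063) and Hsp90aa1 0.28 (adjusted p = 0.0807). The cold-inducible gene Cirbp differed by -0.20 ± 0.11 (adjusted p = 0.257). Of 15 genes of the unfolded protein response 2 rose, Atf6 (0.28 ± 0.08) and Hyou1 (0.25 ± 0.08), with a median of 0.13, while Hspa5 (0.28 ± 0.09) and Herpud1 (-0.25 ± 0.09) did not pass. Atf6 did not pass without replicate 3 of CT19 (0.25, adjusted p = 0.0861), nor Hyou1 without replicate 1 (0.21, adjusted p = 0.164).

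Of 10 p53 targets 4 rose and none fell (median 0.14). Cdkn1a, which encodes the cell cycle inhibitor p21, stood at 10.82, 10.87 and 10.91 at CT19, against 9.46, 9.06 and 9.08 at CT7 (1.67 ± 0.16, 3.18-fold, adjusted p = 1.09e-06). Phlda3, an inhibitor of AKT, stood at 11.94, 12.13 and 11.67 at CT19, against 10.95, 11.14 and 11 at CT7 (0.88 ± 0.11, adjusted p = 4.95e-05). Both were apart in every array. Ccng1 rose by 0.45 ± 0.08 (adjusted p = 0.000926) and Mdm2, which encodes the ligase that degrades p53, by 0.39 ± 0.09 (adjusted p = 0.00974), and Mdm2 did not pass without replicate 2 of CT7 (0.30, adjusted p = 0.0657). Cdkn1a is also the member that rose among 14 glucocorticoid targets, of which 3 fell (median 0.00): Per1, Sgk1 (-0.53 ± 0.15) and Klf9 (-0.31 ± 0.10). Sgk1 did not pass without replicate 1 of CT7 (-0.41, adjusted p = 0.108), nor Klf9 without replicate 2 of CT19 (-0.20, adjusted p = 0.255). The call of Klf9 ended in 15 of 24 single omissions, some of them of MUT arrays.

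Of 13 immediate early genes 3 rose and none fell (median 0.04). Fosl2, which encodes the AP-1 subunit FRA2, was the clearest at 10.46, 10.37 and 10.38 at CT19, against 9.51, 9.60 and 9.41 at CT7 (0.89 ± 0.07, adjusted p = 2.68e-08). Its arrays varied by less than 0.2 units within each time. Ier3 rose by 0.57 ± 0.12 (adjusted p = 0.00476), Jund by 0.34 ± 0.09 (adjusted p = 0.0175), and Myc had -0.36 ± 0.12 (adjusted p = 0.0571). Jund did not pass without replicate 3 of CT7 (0.29, adjusted p = 0.0929), and its second probe set read -0.00 ± 0.10.

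Genes of amino acid transport moved both ways. Of 10 transporter genes 4 fell and 2 rose (median -0.18), led by Slc43a1, a transporter of large neutral amino acids, at 9.56, 9.66 and 9.83 at CT19, against 10.76, 10.63 and 10.72 at CT7 (-1.02 ± 0.13, adjusted p = 3.13e-05). Slc6a6, the taurine transporter, fell by 0.77 (SE 0.12, adjusted p = 0.000319). The risers were Slc7a8 (0.57 ± 0.12) and its partner subunit Slc3a2 (0.39 ± 0.08). Of 12 genes that break down branched-chain amino acids 3 fell and none rose (median -0.21): Bckdha (-0.59 ± 0.12, adjusted p = 0.00375), Bcat2 (-0.47 ± 0.14, adjusted p = 0.0277) and Hibch (-0.27 ± 0.08, adjusted p = 0.04), while Ppm1k (-0.34 ± 0.13) did not pass. Bcat2 without replicate 1 of CT19 (-0.39, adjusted p = 0.12) and Hibch without replicate 2 (-0.22, adjusted p = 0.168) did not pass. Slc5a6, which carries biotin and pantothenate, was among the 15 lowest genes at 8.78, 8.92 and 8.93 at CT19, against 9.92, 10.14 and 10.17 at CT7 (-1.2 ± 0.12, adjusted p = 1.09e-06).

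Of 12 adipogenic transcription factors 4 fell and none rose (median -0.03): Klf15, a regulator of amino acid and fat metabolism (-0.59 ± 0.10, adjusted p = 0.000648), Tcf7l2 (-0.46 ± 0.10, adjusted p = 0.00361), Cebpa (-0.34 ± 0.09, adjusted p = 0.0135) and Klf9. Cebpa did not pass without replicate 3 of CT19 (-0.32, adjusted p = 0.0514), and Klf9 lost its call in 15 of 24 single omissions. Among 12 nuclear receptors Ppard rose (0.26 ± 0.07) and Ppara fell, while Rara (0.15 ± 0.07) and Rxrg (0.14 ± 0.09) did not pass, and Ppard missed the threshold without replicate 3 of CT7 (0.24, adjusted p = 0.0939). Of 9 genes of ALK7 and TGF-beta signalling, Tgfbr2 (0.45 ± 0.09) and Fst (0.20 ± 0.06) rose and Acvr1c, which encodes the fat-enriched receptor ALK7, fell (-0.49 ± 0.13). Without replicate 2 of CT19 Acvr1c had -0.31 (adjusted p = 0.15) and Fst 0.15 (adjusted p = 0.197). Of 11 adrenergic genes Pde3b, the phosphodiesterase through which insulin restrains lipolysis, fell (-0.35 ± 0.09, adjusted p = 0.0111), with -0.25 (adjusted p = 0.0834) without replicate 2 of CT19.

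The remaining lists had between 0 and 3 calls each. No gene was called of 18 oxidative phosphorylation subunits (median 0.01, range -0.25 to 0.11), of 9 cytosolic ribosomal proteins, of 7 cell cycle genes or of 6 interferon response genes. Ribosome biogenesis (Nolc1 and Utp20 of 17) and aminoacyl-tRNA synthetases (Iars and Wars of 15) had 2 higher each, proteasome subunits 1 higher (Psmd14) and 1 lower (Psmc1) of 12. Of autophagy and lysosome genes Ctsl (0.51 ± 0.11) and Ctsb (0.25 ± 0.07), which encode cathepsins, rose and Bnip3 fell (-0.47 ± 0.15) of 13. Of inflammation genes Cxcl12 (-0.52 ± 0.10) and Nfkbia (-0.32 ± 0.08) fell of 10. The calls of Nolc1, Utp20, Wars, Psmd14, Psmc1, Ctsb, Bnip3 and Nfkbia each ended without at least 1 array, with differences there of 0.31, 0.23, 0.21, 0.24, -0.16, 0.22, -0.26 and -0.24. For Bnip3 the call ended in 12 of 24 single omissions.

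Markers of some cell types other than adipocytes differed between the times. In bulk tissue, fewer cells of a type and less RNA per cell cannot be told apart. Of the 9 markers of mesothelium, the cell layer that covers the fat pad, 8 rose, none fell and the median was 1.13. Upk3b, a uroplakin gene of mesothelial cells, had 11.24, 11.16 and 11.24 at CT19, against 10.04, 10.08 and 10.14 at CT7 (1.13 ± 0.24, adjusted p = 0.00473). Muc16, a surface mucin gene, had 8.11, 7.88 and 8.22 at CT19, against 6.57, 6.85 and 6.74 at CT7 (1.35 ± 0.32, adjusted p = 0.0083). Its CT7 signals were below the level filter of 7.416, so the gene was tested only through groups where it is higher, and the size of its difference is not exact. Within each of these times the arrays were close together, and the groups did not overlap. Krt8 rose by 0.92 ± 0.17 (adjusted p = 0.00154) and Gpm6a by 1.54 ± 0.35 (adjusted p = 0.00702). Msln, a further mesothelial surface gene, had 1.28 ± 0.32 (adjusted p = 0.0114), and 1.14 (adjusted p = 0.0526) without replicate 1 of CT19. The mesothelium list averaged 9.52, 9.21 and 9.30 log2 units at CT19, against 8.33, 8.41 and 8.41 at CT7.

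Of the 7 fibroblast and preadipocyte markers 5 rose and none fell (median 0.51), among them Dpp4 (1.12 ± 0.26) and Pi16 (0.90 ± 0.20), which mark progenitors of mouse fat, Cd34 (0.61 ± 0.10) and Dcn (0.41 ± 0.10). Of 11 macrophage markers 4 rose and none fell (median 0.34), with the mannose receptor gene Mrc1 at 9.92, 9.90 and 10.12 at CT19, against 9.27, 9.39 and 9.22 at CT7 (0.69 ± 0.17, adjusted p = 0.011), then Csf1r (0.54 ± 0.13), Adgre1 (0.51 ± 0.14) and C1qb (0.40 ± 0.12). Of 17 extracellular matrix genes 8 rose and none fell (median 0.25). Adamts5, an aggrecanase gene, led them at 11.89, 11.31 and 11.28 at CT19, against 10.28, 10.48 and 10.13 at CT7 (1.2 ± 0.19, adjusted p = 0.000298), followed by Fn1 (0.81 ± 0.15), Lox (0.58 ± 0.10) and Col6a1 (0.48 ± 0.14). Adgre1 without replicate 3 of CT19 (0.43, adjusted p = 0.105), C1qb without replicate 1 (0.31, adjusted p = 0.157) and Col6a1 without replicate 1 (0.42, adjusted p = 0.0961) did not pass. A second probe set of Col6a1 gave 0.40 ± 0.18 (adjusted p = 0.166).

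Adipocyte markers were level by comparison, with 1 of 12 higher (Lep), 2 lower (Pck1 and Lipe, -0.22 ± 0.06) and a mean of 12.63, 12.50 and 12.69 log2 units at CT19, against 12.66, 12.65 and 12.67 at CT7. Without replicate 1 of CT19 Lipe had -0.19 (adjusted p = 0.0741). Of 8 endothelial markers Flt1 fell (-0.30 ± 0.08) and none rose, and Flt1 did not pass without replicate 1 of CT7 (-0.21, adjusted p = 0.138). Of 7 smooth muscle and pericyte markers Acta2 rose (0.47 ± 0.13), not passing without replicate 1 of CT19 (0.34, adjusted p = 0.139). No member was called of the tested neuronal (8), epididymal (2), T cell (2), B cell (3), mast cell (3), skeletal muscle (3) and brown adipocyte (5) markers, and no erythrocyte marker had a probe set of its own.

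The mesothelial signal moved with several lists, and their counts were recomputed with it as a covariate. A mesothelium score, which is each array's median deviation over those markers, was 0.401, 0.162 and 0.189 at CT19, against -0.847, -0.839 and -0.779 at CT7, so it is almost the same contrast as time and takes up part of any time difference. With the covariate the called genes numbered 481 (316 higher, 165 lower). Fibroblast markers then had 0 higher of 7, matrix genes 1 of 17, macrophage markers 1 of 11 and heat shock genes 1 of 11. Their median differences with the covariate were 0.27 for fibroblasts (0.51 without it) and 0.24 for matrix (0.25). For macrophages they were 0.23 (0.34) and for heat shock 0.22 (0.27). These medians include members without a call, and some called members shrank more. Hsph1 had 0.28 with the covariate (0.63 without it), Hsp90aa1 0.17 (0.37), Fn1 0.42 (0.81) and Col6a1 0.35 (0.48), and Adamts5 fell to 0.87. Less changed were Hspa8 at 0.47 (0.54), Serpinh1 at 0.50 (0.58) and Lox at 0.59 (0.58). Whether these genes differ apart from the mesothelial signal was not tested. With the covariate cholesterol synthesis had 10 higher of 13, fatty acid and triglyceride synthesis 6 of 21 and glycogen genes 3 of 11. All 3 activators kept their calls. Bhlhe40 (0.89, adjusted p = 0.11) and Cry1 (0.37, adjusted p = 0.129) did not. The fit without replicates 2 and 3 of CT7 leaves a single CT7 array. Its list medians were 1.08 for mesothelium, 0.26 for matrix, 0.58 for fibroblasts, 0.34 for macrophages and 0.29 for heat shock. These were close to the medians over all arrays. For p53 targets the median was 0.09 (0.14 over all arrays) and for glycogen genes 0.26 (0.22). Of 119 named genes with a call, 34 kept it under every alternative in which the gene was refitted. This leaves out the 1.5-fold threshold, the test of all probe sets and any fit that did not hold the gene. It includes the fit with a single CT7 array, in which calls are harder to keep. Besides single omissions, Sqle and Ciart were refitted under 12 alternatives and Asb12 under 11, against 13 for the other genes of the 34. Of the 34 genes, 31 differed by at least 1.5-fold. Hspa8 (1.45-fold), Gpihbp1 (1.42-fold) and Srebf2 (1.3-fold) did not. Among the 34 were 11 of the 14 called clock genes and Angptl8, Pnpla3, Lep, Cdkn1a, Phlda3, Fosl2, Ppp1r3c, Ppp1r3d, Sqle and Sc5d.

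**Figure D3:**
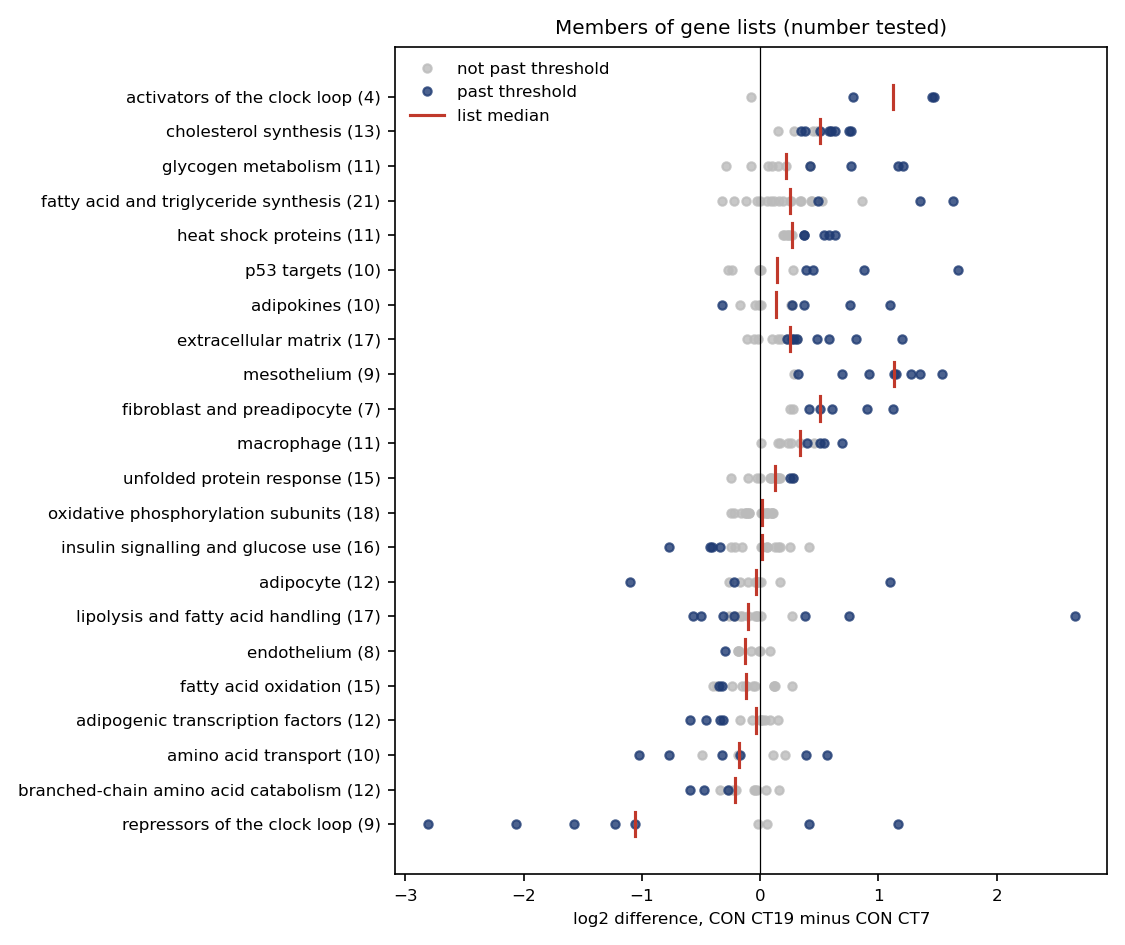
Log2 difference of CON CT19 minus CON CT7 (horizontal axis) for the members of 22 gene lists (vertical axis, number tested in brackets), in blue where the adjusted p was under 0.05 and grey otherwise, with a red line at the list median. All mesothelium, heat shock and cholesterol synthesis members lie above 0, and the clock repressors spread over both sides.

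Of the 15 highest genes, those not described above were Asb12, Vgll3, Chst4, Gfpt2 and Pkhd1l1. Asb12, a gene of the SOCS box family, read 8.0, 8.41 and 8.80 at CT19, against 6.40, 6.44 and 6.36 at CT7 (2.0 ± 0.21, adjusted p = 3.05e-06). Its CT7 signals were about 1 log2 unit below the level filter of 7.416, so it was tested only through groups where it is higher, and the size of its difference is not exact. Vgll3, a transcription cofactor gene, read 11.02, 10.07 and 9.62 at CT19, against 8.89, 8.68 and 8.87 at CT7 (1.42 ± 0.32, adjusted p = 0.00589). Gfpt2, an enzyme of hexosamine synthesis, rose by 1.34 ± 0.24, Chst4, a sulfotransferase gene, by 1.35 ± 0.32 and Pkhd1l1 by 1.27 ± 0.29. With the mesothelium score as a covariate these last 3 had 0.36, -0.05 and -0.06, and Vgll3 0.37, while Asb12 had 2.38.

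Of the 15 lowest genes, those not yet described were 2010016I18Rik (-1.55 ± 0.21), Pisd-ps3 (-1.50 ± 0.34), Unc93a2 (-1.46 ± 0.19), Serpina3b (-1.43 ± 0.33), Zyg11a (-1.18 ± 0.24), Gstt2 (-1.16 ± 0.17), Fam13a (-1.11 ± 0.15) and Snora44 (-1.07 ± 0.25). Fam13a, linked in humans to fat distribution, stood at 10.47, 10.23 and 10.99 at CT19, against 11.73, 11.49 and 11.81 at CT7 (adjusted p = 8.47e-05). Gstt2, a glutathione transferase gene, stood at 8.99, 8.75 and 8.83 at CT19, against 10.13, 9.96 and 9.97 at CT7 (adjusted p = 0.00013). Serpina3b, of a cluster of similar serpin genes, stood at 7.69, 8.01 and 8.42 at CT19, against 9.30, 10.07 and 9.05 at CT7 (adjusted p = 0.00642). Arrays that did not overlap were a condition for entry to these 15 genes. Pisd-ps3 is a pseudogene and Serpina3b has close paralogs, so their signals may include related transcripts.

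The CT1 and CT13 arrays of CON fat give the levels of these genes at the remaining times. For the genes higher at CT19 the median gene stood 54.6% of the way from CT7 to CT19 at CT1 and 62.1% at CT13. For the genes lower at CT19 these positions were 31.8% and 78.2%. The genes were called from the CT7 and CT19 arrays that set the ends of this scale. That choice alone favours positions between the ends, so they are given as description. The contrast of CT13 with CT1, which shares no arrays with that of CT19 with CT7, was called for 1103 genes (7.1%). Of the 1160 higher genes it was called in the same direction for 59 and in the opposite one for 34, and of the 498 lower genes for 118 and 5. Across genes the 2 contrasts had a Pearson correlation of 0.24, described without a p-value since genes are not independent.

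Genes of the same 12-h difference followed different courses. Arntl averaged 8.95, 8.07, 8.36 and 9.54 at CT1, 7, 13 and 19, with CT7 the lowest time. Nr1d1 averaged 12.04, 12.23, 10.06 and 9.42, near its highest already at CT1. Lep averaged 11.91, 11.56, 12.74 and 12.66, as high at CT13 as at CT19, whereas Angptl8 averaged 9.37, 9.15, 10.20 and 11.81, with CT19 above CT13. Ppp1r3c (9.29, 9.49, 9.92 and 10.70) resembled Angptl8, Hspa8 (12.20, 12.13, 12.57 and 12.67) resembled Lep, and Sqle (8.50, 7.86, 8.12 and 8.61) resembled Arntl. Upk3b (10.72, 10.09, 11.04 and 11.21) and Mrc1 (9.85, 9.29, 9.70 and 9.98) had CT7 as their lowest time, and their SDs at CT1 were 0.36 and 0.27.

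A further contrast set the mean of CT1 and CT13 against the mean of CT7 and CT19. It called 4 genes (0.0258%), in all of which the mean of CT1 and CT13 was the lower. Bhlhe41 averaged 7.95, 9.17, 8.34 and 9.15 at CT1, 7, 13 and 19 (-1.02 ± 0.17, adjusted p = 0.0197), the means at CT7 and CT19 being nearly equal and both above those at CT1 and CT13. Bhlhe40 had -0.90 ± 0.15 (adjusted p = 0.0228), Ciart -0.55 ± 0.05 (adjusted p = 3.64e-06) and Pfkfb3 -0.55 ± 0.07 (adjusted p = 0.000279). Ciart averaged 7.62, 8.78, 7.79 and 7.72, so CT7 alone stood apart, and Bhlhe40 averaged 8.75, 9.66, 9.93 and 10.82, with CT13 above CT7. The calls of Bhlhe41 and Bhlhe40 ended without any 1 of 7 and 9 arrays. Without replicate 1 of CT13 they were -0.93 and -0.87, both with adjusted p = 0.12.

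**Figure D4:**
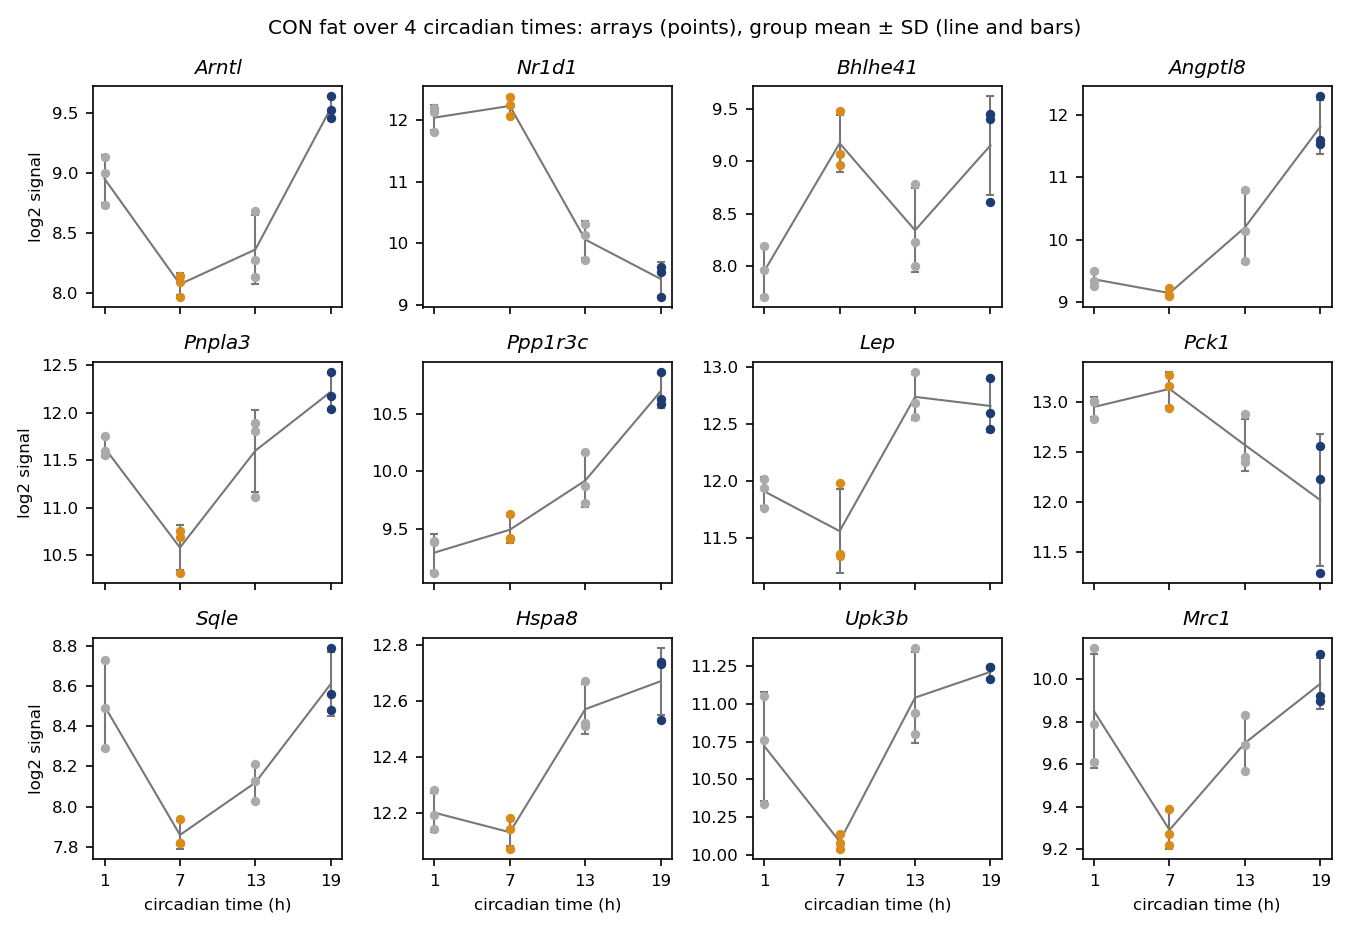
Log2 signal (vertical axes) of 12 genes in CON fat at CT1, 7, 13 and 19 (horizontal axes, hours), with points for the 3 arrays of each time, a line through the means and bars of 1 SD. Angptl8 and Ppp1r3c have their highest mean at CT19, Lep and Hspa8 at both CT13 and CT19, and Bhlhe41 alternates.

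The same 12-h difference was measured in MUT fat, where 129 genes were called (0.831%), 90 higher and 39 lower. Leaving out single arrays gave between 19 (without replicate 1 of MUT CT7) and 258 (without replicate 2 of MUT CT13). Of the 1160 genes higher at CT19 in CON, 887 (76.5%) were above 0 in MUT, where 53.6% of all genes were above 0, and their median MUT difference was 0.09. Of the 498 lower genes, 242 (48.6%) were below 0 in MUT, with a median of 0.01. In MUT 38 of the higher genes were called in the same direction and 6 in the opposite one, and 8 and 4 of the lower genes. Across all genes the CON and MUT differences had a Pearson correlation of 0.27. With 2 times, a shift of phase and a change of size cannot be told apart in MUT.

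The difference between the genotypes, tested as MUT minus CON, was called for 315 genes (2.03%), 152 positive (0.979%) and 163 negative (1.05%), and for as few as 122 without replicate 2 of CON CT19. Nr1d1 was the most positive, running the opposite way: in MUT it read 11.95, 11.81 and 11.24 at CT19, against 10.80, 10.90 and 10.78 at CT7 (0.84 ± 0.17, adjusted p = 0.0246), and the genotypes differed by 3.65 ± 0.24 (adjusted p = 4.95e-09). Angptl8 was the most negative. It read 9.04, 9.35 and 9.36 at CT19, against 9.86, 9.20 and 9.66 at CT7 in MUT (-0.33 ± 0.33), and the genotypes differed by -2.99 ± 0.47 (adjusted p = 0.00171). Pnpla3 in MUT read 11.02, 11.17 and 11.79 at CT19, against 11.87, 11.67 and 11.92 at CT7, and the genotypes differed by -2.13 ± 0.27 (adjusted p = 0.000193). In MUT Nr1d1 was separated in the opposite direction to CON, and the arrays of Angptl8 and Pnpla3 overlapped. Further negative genes were Ppp1r3c (-1.80), Asb12 (-1.75), Bhlhe40 (-1.71), Ppp1r3b (-1.66), Mid1ip1 (-1.62) and Aacs (-1.61). Further positive ones were Pisd-ps3 (2.31), Rbp7, a retinol-binding protein gene (1.76), Nr1d2 (1.70), Zim1, an imprinted zinc finger gene (1.55), Pck1 (1.52), H2-Q10 (1.49) and Gstt2 (1.41). H2-Q10 belongs to a family of similar class I genes, and its second probe set gave a CON difference of -0.15 ± 0.10, against -1.03 ± 0.25 for the one used. Of these genes, Pisd-ps3 without replicate 1 of MUT CT19 (2.01, adjusted p = 0.0547), Ppp1r3b without replicate 3 of MUT CT7 (-1.54, adjusted p = 0.051), and H2-Q10 (1.25, adjusted p = 0.0973) and Zim1 (1.40, adjusted p = 0.0735) without replicate 2 of CON CT19 did not pass.

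For some clock genes no difference between genotypes was called. In MUT Arntl read 8.96, 9.12 and 9.38 at CT19, against 8.25, 7.92 and 8.39 at CT7 (0.96 ± 0.14, adjusted p = 0.00132), and the genotypes differed by -0.51 ± 0.20 (adjusted p = 0.236). Npas2 had 1.29 ± 0.17, Clock 0.52 ± 0.09, Per3 -1.30 ± 0.16 and Tef -0.81 ± 0.11 in MUT, each called in the direction of CON. For Npas2, Clock, Per3 and Tef the differences between genotypes were -0.15 ± 0.24, -0.27 ± 0.12, 0.27 ± 0.22 and 0.07 ± 0.15. All 9 mesothelial markers were above 0 in MUT with a median of 0.85, none was called there, and none differed between genotypes at the threshold. The mesothelium score in MUT was 0.802, 0.686 and 0.296 at CT19, against -0.718, -0.172 and 0.268 at CT7, with CT7 reaching close to the lowest CT19 value. Cholesterol synthesis had a MUT median of -0.09 and 3 of 13 members with a genotype difference. Fatty acid and triglyceride synthesis had -0.32 and 4 of 21, and glycogen genes -0.02 and 3 of 11. Among called genes outside the extremes, Lep had -0.19 ± 0.14 in MUT, and the genotypes differed by -1.29 ± 0.20 (adjusted p = 0.00127), Phlda3 by -1.45 ± 0.16 and Fosl2 by -0.90 ± 0.10.

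**Figure D5:**
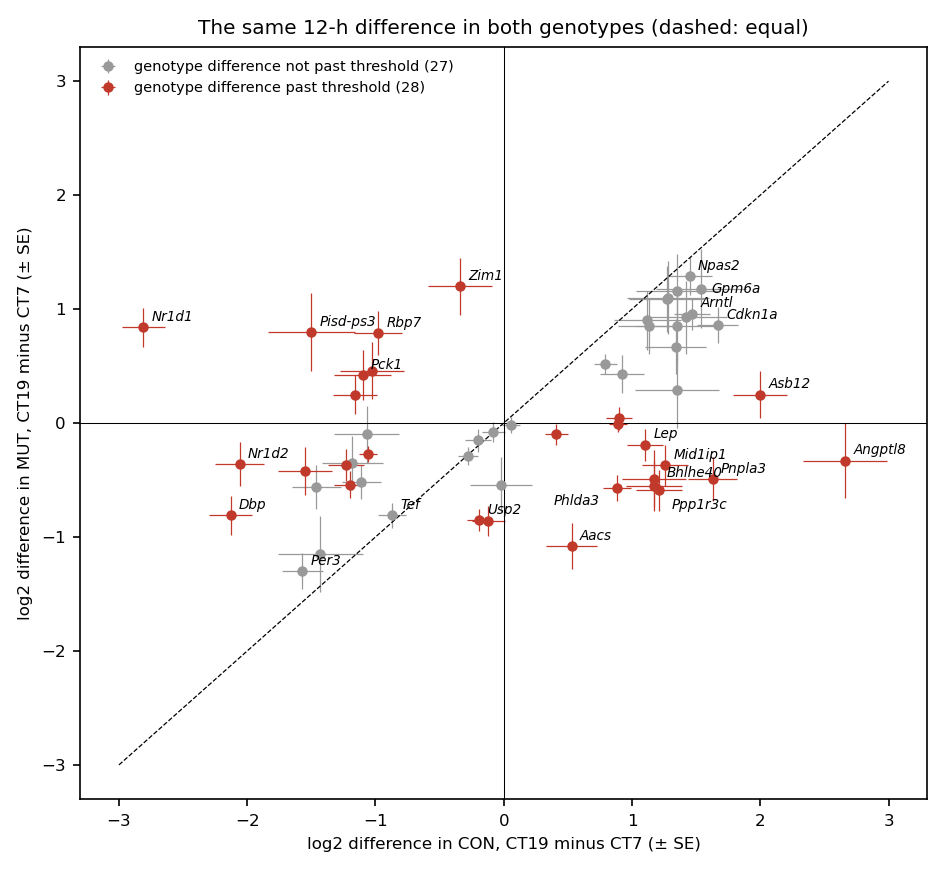
Log2 difference of CT19 minus CT7 in MUT (vertical axis) against the same in CON (horizontal axis) for 55 genes, with bars of 1 standard error, a dashed line of equal differences and red for the 28 genes whose difference between genotypes had an adjusted p under 0.05. Npas2, Per3 and Tef lie near the dashed line, and Angptl8 and Nr1d1 far from it.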

How the data were processed

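RNA of epididymal fat from 24 mice was measured on Affymetrix whole-transcript arrays after biotin labelling, 1 array per mouse and 3 per group. The deposited values are log2 signals per probe set, made by the authors with RMA in Affymetrix Expression Console, per the submitters' processing notes; no source used here gives versions, settings or the annotation's genome build. Of 34390 probe sets 23521 had a single symbol, 1814 had several and 9055 had none in the platform annotation. The brightest single-symbol probe set stood for each of 22180 genes, and 15526 genes with a mean signal above the 30th percentile (7.416) were tested.

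All 24 arrays and 8 groups entered 1 limma 3.58.1 fit (R 4.3.3, empirical Bayes, 16 residual degrees of freedom), with Benjamini-Hochberg adjustment over all genes and a threshold of 0.05. The number of arrays limits the precision. On simulated data with 200 changed genes of 15526, the contrast of CON CT19 with CT7 recovered 9.5% at 1.2-fold, 95% at 1.5-fold and 100% at 2-fold. The simulation had independent noise and fewer changed genes than the 1658 called in the data, so these shares need not hold there. Alternatives changed the scaling, filter, probe set rule, variance model, arrays, threshold and covariates. The letters a to c in the titles were not treated as pairs. Deviations of same-lettered CT19 and CT7 arrays correlated at 0.007, 0.169 and 0.02. Replicate 2 of CT19 correlated best with replicate 2 of CT7, and replicates 1 and 3 with another letter. Whether letters mark a shared batch cannot be told from 3 arrays a group. Members, gene lists and tests were chosen with earlier results of these data known. Named genes were all clock members, the 15 highest and 15 lowest called genes whose arrays did not overlap, up to 4 of each other list by smallest p, and the 8 highest and 8 lowest of the genotype and CT1 and CT13 contrasts, with Arntl and Syt10. Acly was added after its values were seen.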

Additional observations from a re-analysis of the deposited data

Results flagged for a closer look

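For 49 of the named genes, the difference of CT19 minus CT7 differed between MUT and CON by limma's interaction test (adjusted p under 0.05). Over all genes tested the share was 2.03%. Many named genes were chosen for their CON difference, which this test subtracts, and others by this test itself. The count is therefore not separate support for a genotype difference. Values are MUT minus CON on the log2 scale. In clock genes they were 3.65 for Nr1d1, 1.70 for Nr1d2, 1.32 for Dbp, 0.87 for Per1, 0.79 for Ciart, -0.50 for Cry1, -0.66 for Usp2, -0.74 for Wee1, -0.86 for Nfil3 and -1.71 for Bhlhe40. In genes of fat and glycogen metabolism they were -2.99 for Angptl8, -2.13 for Pnpla3, -1.80 for Ppp1r3c, -1.66 for Ppp1r3b, -1.62 for Mid1ip1, -1.61 for Aacs and 1.52 for Pck1, then 1.27 for Angptl4, 0.58 for Gpihbp1, 0.55 for Aqp7, -0.49 for Dgat2, -0.92 for Srebf1, -1.0 for G0s2 and -0.83 for Ppp1r3d. In cholesterol synthesis they were -0.84 for Sqle, -0.72 for Sc5d and -0.37 for Srebf2, and in hormones and insulin or glucose genes -1.29 for Lep, -0.94 for Nampt, 1.11 for Irs2, 0.58 for Pfkfb3 and 0.49 for Pdk2. Stress and signalling genes had -1.45 for Phlda3, -0.90 for Fosl2, -0.73 for Ier3, -0.42 for Hspa8, 0.59 for Cxcl12, 0.83 for Acvr1c, 0.57 for Tcf7l2 and -0.45 for Ppard. In other genes they were 2.31 for Pisd-ps3, 1.76 for Rbp7, 1.55 for Zim1, 1.49 for H2-Q10, 1.41 for Gstt2, 1.14 for 2010016I18Rik, 1.22 for Slc43a1, 0.66 for Slc5a6 and -1.75 for Asb12. Rbp7 had opposite calls in the genotypes. It read 9.39, 9.32 and 8.76 at CT19, against 8.21, 8.46 and 8.44 at CT7 in MUT (0.79, adjusted p = 0.0492), and 8.60, 7.92 and 8.38 at CT19, against 9.41, 8.99 and 9.44 at CT7 in CON (-0.98, adjusted p = 0.00206). Usp2 and Wee1 were lower at CT19 in MUT (-0.85 and -0.86) and did not pass in CON. Groups of 3 arrays were too small to test for a single array far from the others.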

How the results depend on the processing

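The CON contrast of CT19 with CT7 called 1658 genes (1160 higher, 498 lower), and 2678 (1967 higher) with array weights, 258 (192 and 66) with a fold of at least 1.5, 481 (316 and 165) with the mesothelium score as covariate and 451 (191 and 260) without CON CT7 replicates 2 and 3. Lower genes numbered 849 after quantile normalization and 750 with the level trend removed. Leaving out single arrays gave 886 to 1813 genes, 591 to 1268 higher and 232 to 545 lower. Higher genes were 720 without CT7 replicate 2, 591 without CT7 replicate 3 and 736 without CT19 replicate 3, and lower genes were 283, 295 and 232 without CT7 replicates 1 and 3 and CT19 replicate 2. The genotype difference called 315, 954 with array weights and 165 with the fold, 122 to 386 over single arrays, and 183 and 141 without CON CT7 replicates 1 and 3, 158 and 143 without MUT CT7 replicates 1 and 3, and 124 and 171 without MUT CT19 replicates 1 and 2. The MUT contrast called 129, and 69 after quantile normalization, 67 with no level filter, 1108 with array weights, 41 with the fold, 83 without CON CT7 replicates 2 and 3, 12 with the mesothelium covariate and 19 to 258 over single arrays. The contrast of CT1 and CT13 with CT7 and CT19 called 4 (1037 at an unadjusted p under 0.05), 8 with array weights, 2 with trended and robust variance, 2 with the fold, 7 without CON CT7 replicates 2 and 3, and 2 to 8 over single arrays. With the replicate letter as a block these contrasts called 1552, 275, 71 and 4. With the mesothelium covariate Gpm6a, Msln and Muc16 (-0.07 each), Pkhd1l1 (-0.06) and Chst4 (-0.05) turned sign. Gpm6a, Msln and Muc16 are markers of the score itself, so the loss of their differences follows from how the score is made. Wars had -0.01 without CON CT7 replicates 2 and 3, and every count given for that setting rests on a single CON CT7 array. Uncalled genes that turned sign were Bhlhe41 (0.05 with array weights, and -0.17 to 0.25 over single arrays, 0.14 without CT7 replicate 1), Rora (-0.16 to 0.04) and Wee1 (-0.19 to 0.00), the last pair without CT19 replicate 2. Of 119 named genes with a call, 78 kept it in all single omissions. The cause of these changes was not tested. In simulated data with 3 arrays a group and fewer changed genes, differences of 1.2-fold were mostly not detected.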
